A study of Drosophila melanogaster with 9 samples.

Results

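A set of 7 little-studied genes was followed across refed, sated and fasted fly brains: phu, CG13607, CG9377, CG5955, CG42807, CG5404 and ebd1. These 7 genes, of 17489 in the count files, had been picked for a difference between refed brains and fasted or sated brains. Their values in those 2 comparisons are therefore given as a description, with no p-value, and counts past a threshold in them describe the choice. The third comparison, sated against fasted brains, was not part of that choice, but it uses the same sated and fasted samples and is not independent of it.

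All samples were central brains of male w1118CS flies that were 7 days old, with 10 brains pooled in each sample and 3 samples in each group. The labels speak of 4 replicates a condition, of which 3 were analysed here, and every sample title carries the mark CD, the study's name for its control diet. Fasted flies were kept on water alone from 5 PM, for 20 h in all. Refed flies were also fasted from 5 PM. At lights on (9 AM) they had free access to 400 mM D-glucose for 2 h by the labels, while the study's text describes the time after feeding differently. By these times the length of the fast, and perhaps the hour of dissection, differed between refed and fasted flies. Neither can be told apart from refeeding here. Sated flies had only a 1 h period without food, which brought their feeding state into step before dissection. By the study's text they had eaten their regular morning meal and were never fasted, and no clock time is given for them here. In comparisons with sated brains, fasting history, the food eaten and perhaps the hour of dissection cannot be told apart. Total RNA was depleted of ribosomal RNA and sequenced, and the reads were counted on each gene.

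Fasting turns fly tissues toward the breakdown of stored fat, glycogen and amino acids, and a sugar meal turns them back toward glucose use within hours. Of the 7 genes, phu belongs to the alkaline phosphatases, CG9377 to the clip-domain serine protease homologues (proteases that have lost catalytic activity), CG5955 encodes the mitochondrial enzyme L-threonine 3-dehydrogenase and is now named Tdh, and ebd1 (earthbound 1) encodes a DNA-binding helper of Armadillo in Wingless signalling. CG13607, CG42807 and CG5404 carry annotation numbers only, and no role is given to them here.

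Each library held between 4957138 and 7897838 reads on the annotated strand of genes. Reads on the opposite strand made up 9.59% to 12.4% of stranded gene counts in 6 libraries and 20.6% to 28.5% in the other 3, which were sated sample 2 and fasted samples 1 and 2. Fasted sample 2 also stood apart in the summed level of 9 muscle genes, at 1089 CPM (counts scaled to the library size), where the other 8 libraries held between 80.6 and 209. Neuron genes (8 genes, summed to between 10040 and 11490 CPM) and glia genes (10 genes, 3528 to 4074 CPM) were abundant in every library, as the label of central brain requires, and neither list had a gene past the threshold (edgeR quasi-likelihood test, adjusted p under 0.05) in any of the 3 comparisons. Photoreceptor genes (14 genes) were present too, at 2072 to 2276 CPM in sated, 1541 to 1768 in refed and 1311 to 1843 in fasted brains.

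All 7 genes are protein coding, 3 on the plus and 4 on the minus strand, and coordinates are those of the BDGP6 build. Their levels spanned a wide range. Per kilobase of exon, the mean level over the 9 samples was 183 CPM for CG9377, with only 158 of 9232 genes above it. Those 9232 genes passed the filter on low counts over the 3 groups, with a mean of at least 1 CPM. The other genes of the 17489 in the files are left out of every share in this paragraph. CG5404 (17.3 CPM per kilobase), CG5955 (15.7) and ebd1 (12.3) lay in the middle of the range, with 34.6%, 37.4% and 44.4% of genes above them. CG13607 (3.60), phu (2.13) and CG42807 (1.42) were low, with 76.3%, 85.1% and 90.0% of genes above them.

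**Figure D1:**
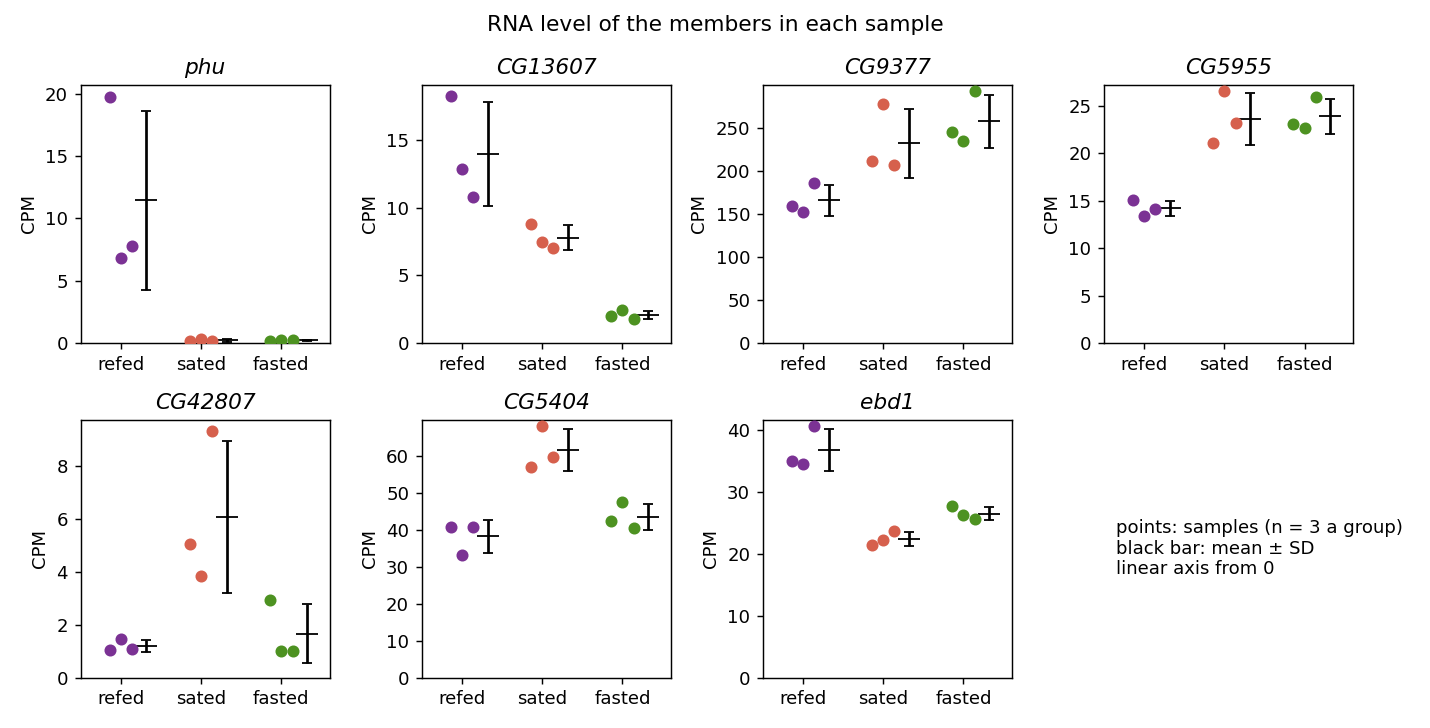
Level of each of the 7 genes (CPM, linear axes from 0) in the 3 refed, 3 sated and 3 fasted samples, 1 point per sample, with the group mean ± SD as a black bar. phu stood at 6.84 to 19.7 CPM in refed brains and below 0.35 in all others, CG13607 fell in the order refed, sated, fasted, CG9377 and CG5955 were lowest in refed brains, and CG42807 and CG5404 were highest in sated brains.

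phu, the alkaline phosphatase gene (FBgn0043791; 3R, 9494801 to 9496723, plus strand), was close to undetected outside refed brains. It had 152, 52 and 57 reads in the 3 refed samples, against 1, 2 and 1 in the sated and 1, 1 and 2 in the fasted samples. In CPM, refed samples held 19.7, 6.84 and 7.81, sated samples 0.149, 0.349 and 0.128, and fasted samples 0.185, 0.20 and 0.256. Every refed sample lay far above every other sample, while sated and fasted samples overlapped. Refed sample 1 had 2.88 times the level of refed sample 2, and refed brains averaged 11.5 ± 7.17 CPM (SD, n = 3), sated brains 0.209 ± 0.122 and fasted brains 0.214 ± 0.0374. In these bulk samples, more cells that express a gene and more RNA per cell cannot be told apart.

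The fitted log2 fold change of phu was 5.58 (SE 0.66) in refed against fasted and 5.74 (SE 0.68) in refed against sated brains, the largest absolute change of all 9025 and 8931 genes tested in these comparisons. Without refed sample 1 these values were 4.94 and 5.08. Because phu was picked for these contrasts and passed the filter on low counts through its refed samples alone, nothing is read from its rank. Summed over samples, 261 refed reads against 4 fasted reads gave a ratio of 52.6 (exact 95% interval 20.3 to 195), and against 4 sated reads a ratio of 58.5 (22.6 to 216). These intervals, like all intervals of read ratios given here, cover counting error only. Sated against fasted brains had too few reads to be tested, and 4 reads in each allowed a ratio anywhere between 0.168 and 4.83, so a difference between them was not detectable at this depth.

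RhoL, 377 bases to the right of phu on the other strand, held 3.23, 4.37 and 3.44 CPM on average in refed, sated and fasted brains. CG16779, 1123 bases to the left of phu and also on the other strand, held 844, 852 and 849 CPM. Neither passed the threshold in any comparison. Among 10 other alkaline phosphatase genes found in the files, 3 had no read in any sample and 3 were abundant enough to test, none of which passed the threshold in any comparison. Their median log2 fold change was -0.18 in refed against fasted and 0.03 in refed against sated brains, beside -0.0083 and -0.003 over all genes tested. Alp4, the most abundant of them, held 68.0 ± 7.53 CPM in refed, 58.5 ± 3.85 in sated and 63.7 ± 2.97 in fasted brains (SD, n = 3).

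The 3 genes whose log2 level most resembled that of phu over the 9 samples were CG6908 (Pearson r = 0.976), CG9451 (r = 0.953) and FBgn0029899 (r = 0.936), for which no symbol was found. Such correlations over samples from 3 groups share each library's depth and the group differences, and describe likeness alone. CG9451, an acid phosphatase gene on 3L, held 26.7, 13.5 and 11.2 CPM in refed samples, 5.67, 4.54 and 6.0 in sated and 4.43, 5.41 and 5.12 in fasted samples. As with phu, refed sample 1 was the highest of all and no refed sample overlapped the others. CG9451 changed by 1.77 (SE 0.33) on the log2 scale in refed against fasted brains, CG6908 by 0.76 (SE 0.31) and FBgn0029899 by only 0.11 (SE 0.04).

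CG13607 (FBgn0039151; 3R, 24114043 to 24116322, minus strand) was graded across the 3 feeding states. Refed samples held 18.3, 12.9 and 10.8 CPM, sated samples 8.81, 7.51 and 7.02, and fasted samples 2.03, 2.40 and 1.79. No 2 groups overlapped, and the fasted brains were the lowest. The means were 14.0 ± 3.85, 7.78 ± 0.922 and 2.08 ± 0.308 CPM (SD, n = 3), resting on 318, 157 and 37 reads. The log2 fold change was 2.75 (SE 0.26) in refed against fasted brains, the fourth largest absolute change of the genes tested, and 0.85 (SE 0.20) in refed against sated brains.

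In sated against fasted brains, CG13607 was 3.76-fold higher (log2 fold change 1.91, SE 0.25, edgeR quasi-likelihood adjusted p = 0.0148). All 3 sated samples lay above all 3 fasted samples. The choice did not name this comparison but used the same samples, so the p-value is not independent of the choice. Of the 6 genes of this set that could be tested in sated against fasted brains, CG13607 was the only one past the threshold of adjusted p under 0.05. Over all 8957 genes tested, 0.268% passed (24 genes, 4 of them higher in sated brains). With 5 samples the call was lost when any of 4 libraries was left out: the adjusted p was 0.172 without sated sample 1, 0.0513 without sated sample 2, 0.0708 without sated sample 3 and 0.117 without fasted sample 1. The log2 fold change stayed between 1.71 and 2.13 over 13 alternatives.

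CG13607 lies inside Root, a gene on the opposite strand that encodes a ciliary rootlet protein, and shares no exon base with it. Root had 71 reads in all 9 samples, at 1.15, 1.56 and 0.836 CPM on average in refed, sated and fasted brains, so it was too low to test. The next gene on the same strand, GatB, lies 11726 bases away and held 11.2, 10.6 and 11.7 CPM. Summed over the 9 samples, opposite-strand reads over CG13607 came to 0.104 for each read on its own strand, within the range of 0.0781 to 0.157 over the 7 genes. The share was not even: fasted samples had 7, 6 and 0 opposite-strand reads beside 11, 12 and 14 on its own strand. Refed samples had 13, 5 and 4 beside 141, 98 and 79, and sated samples 7, 4 and 7 beside 59, 43 and 55.

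The genes most like CG13607 were TrpRS (r = 0.973), which charges tRNA with tryptophan, CG9449 (r = 0.952) and Lsd-1 (r = 0.949), the perilipin of lipid droplets. CG9449 is an acid phosphatase gene and the direct neighbour of CG9451, named above for its likeness to phu, with 473 bases between them. CG9449 held 5.19, 3.42 and 3.43 CPM in refed, 2.99, 2.97 and 3.19 in sated and 2.03, 1.60 and 1.79 in fasted samples. CG9449 had the graded order of CG13607, at a smaller range, but it was picked for that likeness and had only 8 to 40 reads a sample. Its log2 fold change in refed against sated brains was 0.39 (SE 0.26). The sated and fasted samples of CG9451 overlapped. Lsd-1 fell from 15.5 ± 5.84 CPM in refed to 8.71 ± 1.68 in sated and 4.29 ± 1.22 in fasted brains, and TrpRS spanned only 27.5 ± 1.09, 26.5 ± 0.346 and 24.2 ± 0.610 CPM (SD, n = 3).

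**Figure D2:**
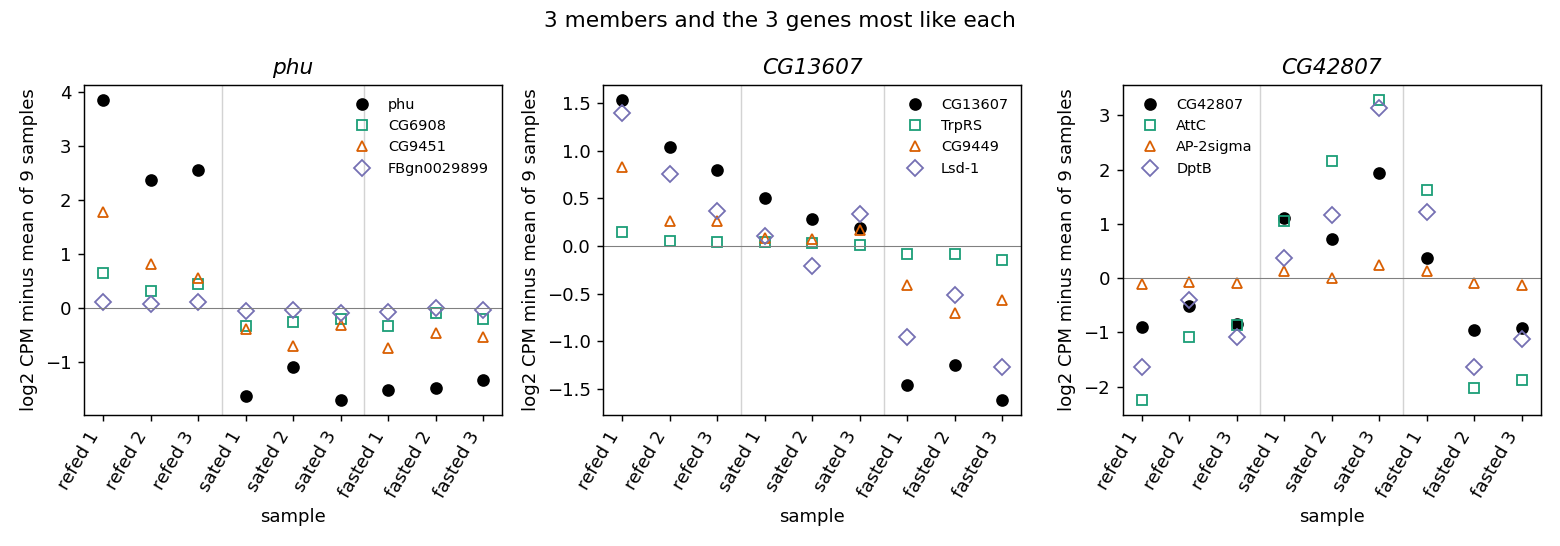
log2 CPM of phu, CG13607 and CG42807 (black circles) and of the 3 genes most like each (open symbols) in each of the 9 samples, drawn as the difference from the gene's own mean over the samples. The genes most like CG42807, which were AttC, AP-2sigma and DptB, shared its highest sample (sated 3) and its raised level in fasted 1. TrpRS, AP-2sigma and FBgn0029899 varied over a much smaller range than the gene they resembled.

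CG9377, the serine protease homologue (FBgn0032507; 2L, 13359901 to 13361565, minus strand), was the most abundant of the 7 and was lowest after refeeding. Refed samples held 159, 152 and 185 CPM, sated samples 211, 278 and 206, and fasted samples 245, 234 and 292. All refed samples lay below all others, while sated and fasted samples overlapped. The means were 165 ± 17.6, 232 ± 39.9 and 257 ± 31.0 CPM (SD, n = 3), and the log2 fold change was -0.66 (SE 0.09) in refed against fasted and -0.49 (SE 0.11) in refed against sated brains. By absolute change it ranked 488 and 517 among the genes tested in these comparisons.

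CG9377 differed between sated and fasted brains by -0.16 (SE 0.11) on the log2 scale (edgeR adjusted p = 0.692). Within the libraries that had under 15% of reads on the opposite strand, 2 sated and 1 fasted, the value was -0.48 (SE 0.07). That value rests on a single fasted library, and no call is taken from it. Its neighbours CG9395 and Nnp-1, both on the same strand, held between 150 and 160 CPM and between 34.2 and 36.3 CPM in the 3 groups. Among 18 other genes for proteases and protease homologues of extracellular cascades, 7, 7 and 8 could be tested in refed against fasted, refed against sated and sated against fasted brains, and none passed the threshold, with median log2 fold changes of -0.02, -0.15 and -0.14. SPE, which activates the Toll ligand, held 2.09 ± 0.464, 1.86 ± 1.41 and 3.60 ± 1.74 CPM in refed, sated and fasted brains (SD, n = 3), far below CG9377.

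CG5955, the threonine dehydrogenase gene (FBgn0036997; 3L, 20466944 to 20469592, plus strand, 6 exon blocks), was lowest in refed brains, as CG9377 was. Refed samples held 15.1, 13.4 and 14.1 CPM, sated samples 21.1, 26.6 and 23.2, and fasted samples 23.1, 22.6 and 26.0. Refed brains were below all other samples, at 14.2 ± 0.820 CPM, while sated brains at 23.6 ± 2.77 and fasted brains at 23.9 ± 1.81 overlapped (SD, n = 3). The log2 fold change was -0.77 (SE 0.10) in refed against fasted and -0.73 (SE 0.12) in refed against sated brains. Between sated and fasted brains it was -0.03 (SE 0.11, edgeR adjusted p = 0.953), and the ratio of summed reads was 0.969 (exact 95% interval 0.850 to 1.11).

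Over the 9 samples CG5955 and CG9377 were each among the 3 genes most like the other, with r = 0.921. The other genes most like CG5955 were fred (r = 0.917), a cell adhesion gene, and nebu (r = 0.913), which changed by only -0.17 and -0.14 on the log2 scale in refed against fasted brains. Those most like CG9377 were CG10359 (r = 0.951) and the long noncoding RNA CR45308 (r = 0.939). CG32428, which ends 81 bases from CG5955 on the other strand, held 34.8, 35.1 and 34.8 CPM in refed, sated and fasted brains.

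Threonine dehydrogenase works with Gcat, the ligase that splits its product into glycine and acetyl-CoA, and the glycine goes on to Shmt and the glycine cleavage system. Gcat, named here for that role after its values were seen, held 10.1 ± 1.12, 10.2 ± 1.43 and 11.4 ± 0.849 CPM in refed, sated and fasted brains (SD, n = 3). Of 8 other genes of threonine and glycine breakdown, 7 could be tested, and none passed in refed against fasted or refed against sated brains. Lower in sated than in fasted brains were 2: Shmt, serine hydroxymethyltransferase, by -0.75 (SE 0.11, edgeR adjusted p = 0.0250) and Sardh, sarcosine dehydrogenase, by -2.54 (SE 0.40, edgeR adjusted p = 0.0411). The list's median log2 fold changes were -0.53, 0.24 and -0.75 in the 3 comparisons. Sardh stood at 0.849 ± 0.387 CPM in sated, 2.78 ± 0.996 in refed and 5.14 ± 1.42 in fasted brains, and Gnmt, glycine N-methyltransferase, at 0.610 ± 0.812, 2.01 ± 1.15 and 2.84 ± 1.10 (SD, n = 3). CG3999, the glycine decarboxylase gene, stood at 2.25 ± 1.37, 4.66 ± 2.75 and 7.92 ± 1.66 CPM in the same order of groups. Shmt, Sardh, CG3999 and Gnmt were named for their small p in sated against fasted brains. Each had its lowest mean in sated brains, where the mean of CG5955 lay close to its fasted mean. CG3999 and Gnmt did not pass the threshold there (edgeR adjusted p = 0.117 and 0.406). Other genes of the list, named after their values were seen, were mixed. The mean of ppl was highest in sated brains, those of Gcat and Agxt were lowest in refed brains, and that of CG6415, too low to test, was lowest in sated brains.

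CG42807 (FBgn0261989; 2R, 13570595 to 13572759, minus strand) was highest in sated brains. It had 34, 22 and 73 reads in sated samples, 8, 11 and 8 in refed and 16, 5 and 8 in fasted samples. In CPM these were 5.08, 3.84 and 9.32 in sated, 1.04, 1.45 and 1.10 in refed, and 2.95, 1.0 and 1.02 in fasted samples. Sated samples lay above all others, and fasted sample 1 lay above all refed samples while the other 2 fasted samples lay just below them. The means were 6.08 ± 2.87, 1.19 ± 0.221 and 1.66 ± 1.12 CPM (SD, n = 3).

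The log2 fold change of CG42807 in refed against sated brains was -2.36 (SE 0.39), the ninth largest absolute change. CG42807 was picked for such a difference and passed the filter on low counts there through its sated samples, so nothing is read from this rank. In refed against fasted brains it did not pass the filter on low counts, and 27 against 29 reads gave a ratio of 0.751 (exact 95% interval 0.428 to 1.31). In sated against fasted brains the log2 fold change was 1.91 (SE 0.48), with no overlap between the groups, but it missed the threshold (edgeR adjusted p = 0.197). It passed with no filter on low counts (1.91, adjusted p = 0.0396) and in DESeq2 (1.91, adjusted p = 0.0171). With 1 sample left out it did not pass, and the value ranged from 1.44 without sated sample 3 to 2.58 without fasted sample 1, with adjusted p between 0.194 and 0.480. The 2 sated libraries and the single fasted library low in opposite-strand reads gave 2.82, from which no call is taken.

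The genes most like CG42807 were AttC (r = 0.946), AP-2sigma (r = 0.941), a subunit of the clathrin adaptor, and DptB (r = 0.940). AttC (Attacin-C) and DptB (Diptericin B) encode antimicrobial peptides of the Imd immune pathway. AttC held 3.88, 8.73 and 19.4 CPM in sated samples, 0.130, 0.657 and 0.823 in refed, and 5.91, 0.20 and 0.256 in fasted samples. DptB held 0.896, 1.75 and 7.79 in sated, 0, 0.394 and 0.137 in refed, and 1.85, 0 and 0.128 in fasted samples. CG42807, AttC, AP-2sigma and DptB all had their highest level in sated sample 3 and, among fasted samples, in sample 1. AP-2sigma held 26, 23.8 and 28.1 CPM in sated and 26, 22.2 and 21.6 in fasted samples. This pattern was thus not particular to the 2 antimicrobial peptide genes. Fasted sample 1 and sated sample 2 are among the libraries with many opposite-strand reads, whereas sated sample 3 is not. The gene nearest to CG42807 on the right, CG42808, lies 858 bases away on the same strand and had 31 reads in all.

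CG5404 (FBgn0038354; 3R, 15704676 to 15708434, plus strand, 5 exon blocks) was also highest in sated brains, with much smaller spread. Sated samples held 57.0, 68.1 and 59.8 CPM, refed samples 40.9, 33.1 and 40.7, and fasted samples 42.5, 47.5 and 40.6. Sated samples lay above all others, and refed and fasted samples overlapped. The means were 61.6 ± 5.77, 38.2 ± 4.42 and 43.5 ± 3.57 CPM (SD, n = 3). The log2 fold change was -0.69 (SE 0.10) in refed against sated and -0.20 (SE 0.10) in refed against fasted brains. For CG42807 and CG5404, then, it was the sated group that stood apart, and fasted and refed samples overlapped.

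Compared with fasted brains, sated brains had 1.42-fold more CG5404 (log2 fold change 0.50, SE 0.09), with no overlap between the groups, and narrowly missed the threshold (edgeR adjusted p = 0.0702). It passed with no filter on low counts (adjusted p = 0.00845), in DESeq2 (0.000608) and in counts without regard to strand (edgeR adjusted p = 0.0443). With any 1 sample left out it did not pass (log2 fold change 0.43 to 0.57, edgeR adjusted p between 0.0644 and 0.300). The genes most like it were CG6006 (r = 0.95), Cyp4d21 (r = 0.95), a cytochrome P450 gene, and CG10863 (r = 0.946). Cyp4d21 held 2.98 ± 0.632, 0.705 ± 0.453 and 0.745 ± 0.211 CPM (SD, n = 3) in the sated, refed and fasted groups. The nearest genes to CG5404 lie 6169 and 7070 bases away and had 2 and 4 reads in all samples together.

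Summed photoreceptor and fat body markers were also highest in the 3 sated samples. All 13 photoreceptor genes that could be tested were lower in refed than in sated brains, and 2 of them, named after their values were seen, passed the threshold: trpl, by -0.58 (edgeR adjusted p = 0.0473), and Arr1, by -0.52 (edgeR adjusted p = 0.0477). The 11 fat body genes summed to 1920 to 2669 CPM in sated, 1190 to 1706 in refed and 1476 to 1727 in fasted brains. Of the mean sum, apolpp, the lipid carrier of the hemolymph, made up 84.7% to 89.3%, and Apoltp most of the rest. Of the other 9, fon held 12.2, 11.6 and 9.85 CPM in refed, sated and fasted brains, Fbp2 was at 0 reads, and the remaining 7 had 10 to 61 reads in all samples together. The part of these cell types in the sated levels of CG42807 and CG5404 was not tested.

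ebd1 (FBgn0035153; 3L, 682885 to 685549, minus strand) was highest in refed and lowest in sated brains. Refed samples held 35.0, 34.6 and 40.7 CPM, sated samples 21.5, 22.2 and 23.6, and fasted samples 27.7, 26.2 and 25.6. No 2 groups overlapped, and the spread within each was small: 36.8 ± 3.42, 22.4 ± 1.09 and 26.5 ± 1.08 CPM (SD, n = 3). The log2 fold change was 0.70 (SE 0.09) in refed against sated and 0.46 (SE 0.09) in refed against fasted brains. The sated against fasted value was -0.24 (SE 0.09), which did not pass the threshold (edgeR adjusted p = 0.406). The neighbours CG3386 and hiro, 414 and 392 bases away on the same strand, had 667 and 8 reads, and CG3386 held 11.1, 10.8 and 10.8 CPM.

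The genes most like ebd1 were Acsf2 (r = 0.979), an acyl-CoA synthetase gene, cert (r = 0.966), which encodes the ceramide transfer protein, and ewg (r = 0.952). ewg encodes Erect wing, the DNA-binding factor known from earlier work to partner with the ebd1 protein on chromatin. It held 194, 183 and 194 CPM in refed, 152, 165 and 161 in sated, and 171, 172 and 163 in fasted samples. Refed samples were again the highest, and the range was narrow: the log2 fold change of ewg was 0.25 (SE 0.05) in refed against sated and 0.16 (SE 0.05) in refed against fasted brains.

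No other gene tested from the list of the Wingless pathway passed the threshold. The list also held wg and slmb, which could not be matched to a gene in the files. Of 24 other genes of Wingless and Armadillo signalling found in the files, 21 could be tested in each comparison, with median log2 fold changes of -0.01, -0.04 and 0.03. ebd2, the paralogue of ebd1, held 7.98 ± 1.33, 5.90 ± 0.751 and 6.92 ± 0.675 CPM in refed, sated and fasted brains (SD, n = 3), and its log2 fold change in refed against sated brains was 0.43 (SE 0.19, edgeR adjusted p = 0.423). pan, the TCF factor that binds Armadillo, differed by 0.08 (SE 0.04) in sated against fasted brains (edgeR adjusted p = 0.606), CkIalpha by 0.06 (SE 0.03, edgeR adjusted p = 0.575) and Apc by 0.07 (SE 0.04, edgeR adjusted p = 0.606).

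**Figure D3:**
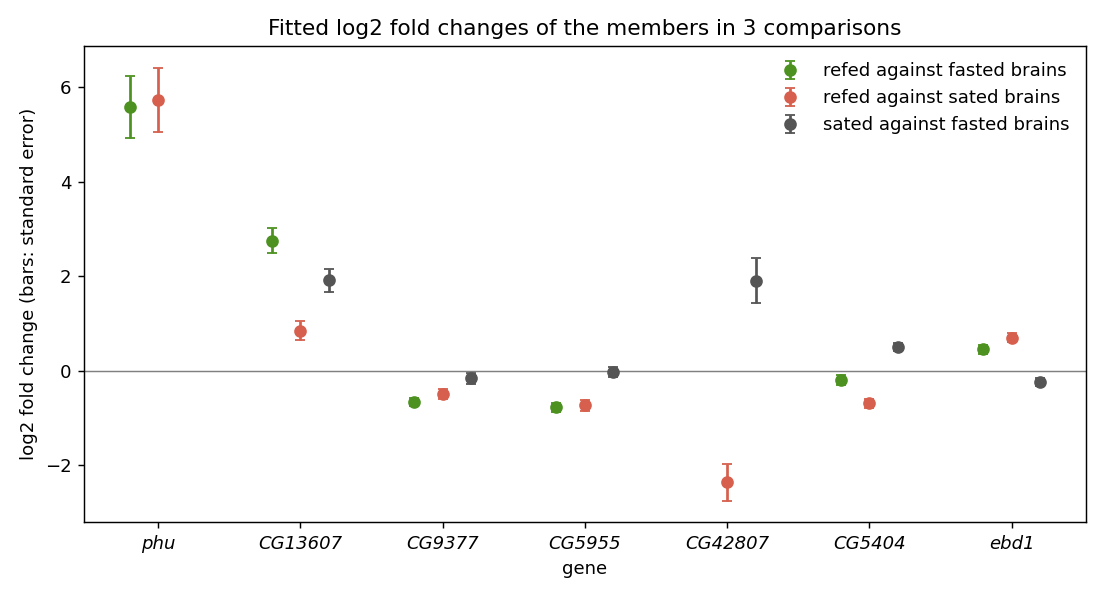
Fitted log2 fold change of each of the 7 genes in the 3 comparisons, with bars of 1 standard error and a line at 0. phu exceeded 5 in both refed comparisons, CG13607 differed most from fasted brains, CG42807 and CG5404 differed most between sated brains and the others, and the 2 points not drawn (phu in sated against fasted and CG42807 in refed against fasted) were too low to test.

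Across the set, 6 genes could be tested in refed against fasted brains, and 4 of them passed the threshold (phu and CG13607 higher, CG9377 and CG5955 lower), where 0.111% of all 9025 genes passed. All but CG5404 had groups that did not overlap there, against 12.1% of all genes. In refed against sated brains 5 of 7 passed (phu and ebd1 higher, CG5955, CG42807 and CG5404 lower), against 0.179% of 8931 genes, and all 7 had groups that did not overlap, against 18.2%. These counts depended on single libraries. With 1 sample left out, 0 to 4 passed in refed against fasted brains: 0 without fasted sample 1, 1 without fasted sample 2 and 2 without refed sample 1 or 2. In refed against sated brains 0 passed without sated sample 1 or 3, 1 without refed sample 1 or 2, and 7 without refed sample 3. The genes were picked on these contrasts, so nothing is read from those shares. In sated against fasted brains 4 of the 6 tested had groups that did not overlap, where 14.4% of all genes did not overlap. Of these 4, CG13607, CG42807 and CG5404 were higher and ebd1 was lower. The choice used the same sated and fasted samples, so nothing is read from that share either.

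Among the 21 pairs of these genes, 4 had r above 0.7 and 6 had r below -0.7 over the 9 samples. The closest were CG9377 with CG5955 (0.921), phu with ebd1 (0.882), CG42807 with CG5404 (0.740) and phu with CG13607 (0.731), and the most opposed were phu with CG5955 (-0.905). CG13607 and CG5404 had the r nearest to 0 (-0.032). Of the 15 nearest or overlapping genes on the chromosome, 14 were in the files and 8 could be tested in each comparison. None of the 8 passed the threshold in any of the 3 comparisons by edgeR, and none had an unadjusted p under 0.05.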

How the data were processed

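For each of the 9 samples, the authors deposited whole-number counts of reads per gene that were not normalized: without regard to strand, on one strand and on the other. STAR had been used for alignment. The submitters' processing notes name STAR, HTSeq, SAMtools 1.4 and DESeq2 1.18.0 and the build BDGP6. The STAR version and the annotation release are not given in the sources used here. The strand that held more reads was used. Rows that name no gene held 42.5% to 60.3% of reads and were left out. Coordinates and symbols came from Ensembl release 115, which held 17215 of the 17489 gene IDs.

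Groups came from the sample labels, which call the samples biological replicates, with 3 per group analysed here, so p-values measure the spread between pools of 10 brains. Counts were fitted in R 4.3.3 with edgeR 4.0.16 (filterByExpr with its minimum count of 10, TMM, quasi-likelihood test), each comparison on its own 6 samples, with Benjamini-Hochberg adjustment over all genes tested and a threshold of 0.05. CPM used TMM library sizes over the 9 samples. log2 CPM used a prior count of 2. DESeq2 1.42.0 and the alternatives named in the closing section were also run. The fits were tested on simulated data with 200 changed genes. Ratios of summed reads carry exact binomial (Clopper-Pearson) 95% intervals.

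Genes named beside the 7 were the 3 of highest Pearson r with each over the 9 samples (among genes with a mean of at least 1 CPM), the nearest and overlapping genes, and up to 4 of each gene list by smallest p in sated against fasted brains, and those named outside this rule are marked or, for cell type markers, given by level. The 7 genes and all lists were chosen with earlier results of these data known.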

Additional observations from a re-analysis of the deposited data

How the results depend on the processing

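Genes past the threshold numbered 10 in refed against fasted, 16 in refed against sated and 24 in sated against fasted brains, and these counts moved widely with the processing. They were 31, 121 and 75 with no filter on low counts, 28, 51 and 110 in DESeq2 (13, 23 and 50 higher), and 20, 41 and 55 in unstranded counts. All 9 samples in one fit gave 53 in refed against sated, and libraries with under 15% opposite-strand reads (2 sated and 1 fasted) gave 204 in sated against fasted brains. Leaving out each sample in turn gave 2 to 264, 2 to 75 and 5 to 30 genes. In refed against fasted, leaving out any sample moved the count by over 1.5 times: 264 passed without fasted sample 3, and 2 to 5 without any other. In refed against sated, 75 passed without refed sample 3, 7 without refed sample 1 or sated sample 3, 5 without refed sample 2 and 2 without sated sample 1. In sated against fasted, 5, 14 and 10 passed without sated samples 1, 2 and 3, and 6 without fasted sample 1. The causes were not tested.

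The replicate number as a block gave 6, 11 and 72 genes, and with it CG5404 passed in sated against fasted brains (adjusted p = 0.0118) while CG13607 still passed (0.0114). Deviations of same-numbered samples did not correlate in every pair (r from -0.0743 to 0.385). In sated against fasted brains r was 0.368 and 0.385 for numbers 2 and 3, which matched best with their own number, and -0.0466 for number 1. Whether the numbers pair the samples is thus not settled, and the main fits used no block.

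Of 78 log2 fold changes of the 7 genes in sated against fasted brains under the alternatives, 63 kept direction and call. In the 2 comparisons used to pick the genes, 167 of 169 values moved by less than the spread between replicates, but the number past the threshold did not hold: with the block it was 3 of 6 in refed against fasted and 2 of 7 in refed against sated brains. The sign turned for CG5955 in sated against fasted brains without sated sample 1 (0.045) and without fasted sample 3 (0.029), and its values with 1 sample left out ranged from -0.117 to 0.045. Depth limits phu and CG42807 most, with 4 and 4 sated and fasted reads of phu and 27 refed reads of CG42807.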
